A study of Mus musculus with 18 samples.

Results

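The genes described here encode AP-1 and EGR immediate early factors: Fos, Fosb, Fosl1, Fosl2, Jun, Junb, Jund, Egr1, Egr2 and Ier2. They were chosen by symbol, with earlier results of these data known, and 10 of the 29112 genes in the deposited read-count table matched. All 10 passed the filter on low counts and were among the 15074 genes tested. The study measured RNA in 18 libraries of HL-1 cells, an immortalised mouse cell line of atrial cardiomyocyte origin, to learn what miR-200a-3p does to their transcripts. The libraries fell into 6 groups of 3. One group received vehicle and one was kept in high glucose, and both were untransfected, with a genotype labelled control. The other 4 groups were transfected in high glucose with a miR-200a-3p inhibitor, the negative control of that inhibitor, a miR-200a-3p mimic or the negative control of the mimic, and were harvested 48 h after transfection with HiPerFect reagent. The glucose concentration, the time in high glucose and the handling of the untransfected cells are not given in the sources used here. Nothing in the labels states whether replicate libraries were separate cultures, so the p-values measure only the spread between these libraries, which may be technical.

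Immediate early genes are transcribed within minutes of a growth factor, calcium or stress signal, without new protein synthesis, largely through MAP kinases acting on factors already bound at their promoters. Fos and Jun proteins pair through leucine zippers into AP-1 dimers, which bind a short palindromic DNA element. Fos and FosB carry strong activation domains, whereas Fra-1 and Fra-2, the products of Fosl1 and Fosl2, lack them and last longer. EGR1 and EGR2 are zinc finger factors that bind a GC-rich element. In cardiomyocytes Fos, Jun and Egr1 are known for their quick rise after stretch, hormone stimulation or ischaemia. miR-200a-3p is a microRNA that guides Argonaute to transcripts pairing with its seed, bases 2 to 8.

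The mature sequences are given to show what the mimic and the inhibitor address and which other members of the microRNA family share the seed, in capitals. They come from RefSeq with the GRCm38.p6 build. miR-200a-3p and miR-141-3p carried the seed AACACUG, while miR-200b-3p carried AAUACUG, as did miR-200c-3p and miR-429-3p.
miR-200a-3p: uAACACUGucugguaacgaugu
miR-141-3p: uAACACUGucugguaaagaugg
miR-200b-3p: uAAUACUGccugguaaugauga

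Matches to this seed were searched in the longest annotated 3′ untranslated region (UTR) of each gene in GENCODE vM39, as CAGTGTTA (8mer), CAGTGTT (7mer-m8) and AGTGTTA (7mer-A1). Of the 10 genes, 8 held none. Jun held 1 match of the 7mer-m8 kind in its single exon, at chr4:94937898-94937904 on the minus strand of GRCm39. Egr2 held an 8mer at chr10:67377674-67377681 and a 7mer-A1 at chr10:67377828-67377834, both in the last of its 2 exons on the plus strand. Among the 12918 tested genes with such a region, 32.2% held at least 1 match and 6.02% an 8mer. The sites are shown with 10 bases on each side and the match in capitals. A match is a description of the letters and was not tested for binding.
Jun 7mer-m8: gtgtcctgccCAGTGTTtgtaaataag
Egr2 8mer: gtgatgtgggCAGTGTTAacagggtctg
Egr2 7mer-A1: gtgacttaaaAGTGTTAcctttgtagc

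Promoter windows of 300 bases, with 250 before the start site and 50 after it, were held for 7 of the 10 genes in a RefSeq table of the GRCm38.p6 build, and all 11 of their windows matched GRCm39 exactly once. Those of Fos, Fosb and Egr2 are shown because their transcripts fell most, together with Egr1, in the mimic control, and that of Jun because its level separated the 2 transfection controls. Capitals mark every motif found on either strand. No 2 of the motifs found overlapped. The CRE core TGACG, bound by CREB and ATF factors, was in 20.8% of all 32851 windows and in those of Fos, Fosb and Junb and in 3 of the 5 windows of Egr2. In Fos it lay 129 and 66 bases upstream of the start site, and in Fosb 60 bases upstream. The EGR motif GCGGGGGCG was in 2.91% of windows and in those of Fosb and Fosl2. A CArG box, the element that serum response factor binds, was in 1.63% of windows and in 4 of the 5 of Egr2. In the Egr2 window shown it lay 72 bases upstream of the start site. The 3 Egr2 windows with a CRE core overlap each other and hold the same cores and the same CArG box. Bases more than 250 upstream were not searched in any gene. The Jun window held TGACATCA, known as an AP-1 site of the Jun gene itself, 45 bases upstream, against 3.62% of all windows. The full CRE TGACGTCA (1.79% of windows), the AP-1 site TGACTCA (5.2%) and the EGR motif GCGTGGGCG (0.612%) were found in none of these windows. The Jund window, chr8:71150139-71150438, ended before the start of the gene used here, 71151599. It may therefore not be the promoter of the transcripts counted for Jund.
Fos, chr12:85520414-85520713, plus strand: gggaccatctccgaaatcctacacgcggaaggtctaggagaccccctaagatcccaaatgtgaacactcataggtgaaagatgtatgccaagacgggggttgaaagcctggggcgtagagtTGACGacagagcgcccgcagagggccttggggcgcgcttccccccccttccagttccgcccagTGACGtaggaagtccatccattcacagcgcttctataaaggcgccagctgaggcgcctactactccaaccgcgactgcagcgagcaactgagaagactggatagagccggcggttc
Fosb, chr7:19043921-19044220, minus strand: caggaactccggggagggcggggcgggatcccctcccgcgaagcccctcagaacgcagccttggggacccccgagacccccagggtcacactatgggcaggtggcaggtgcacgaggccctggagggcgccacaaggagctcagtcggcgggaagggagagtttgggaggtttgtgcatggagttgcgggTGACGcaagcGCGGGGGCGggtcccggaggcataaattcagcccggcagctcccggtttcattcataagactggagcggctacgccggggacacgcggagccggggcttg
Egr2, chr10:67373449-67373748, plus strand: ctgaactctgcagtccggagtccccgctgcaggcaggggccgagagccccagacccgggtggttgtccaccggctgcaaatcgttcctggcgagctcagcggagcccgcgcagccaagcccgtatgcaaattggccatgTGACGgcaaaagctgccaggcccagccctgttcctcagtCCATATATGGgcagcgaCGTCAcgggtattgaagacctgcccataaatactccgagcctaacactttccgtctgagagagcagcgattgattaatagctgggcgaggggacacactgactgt
Jun, chr4:94940410-94940709, minus strand: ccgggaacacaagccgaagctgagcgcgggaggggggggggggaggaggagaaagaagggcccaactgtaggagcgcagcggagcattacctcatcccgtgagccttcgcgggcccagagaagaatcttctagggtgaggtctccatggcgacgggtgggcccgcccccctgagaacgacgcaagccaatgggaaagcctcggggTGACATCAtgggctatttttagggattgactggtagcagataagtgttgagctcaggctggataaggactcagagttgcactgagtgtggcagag

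Library totals ran from 33655916 to 37928790 reads. The limit that a count of 0 allows, 3 reads, equals 0.0791 to 0.0891 CPM by library, for counting error only. CPM are read counts scaled to a common library total. Levels given here are also divided by TMM scaling factors of 0.9056 to 1.057 by library, which this limit leaves out. Of 11 markers of the labelled cell type 10 were listed, and Nppa had 2 reads and Pln 1 read over all 18 libraries. In high glucose the means of Myh6, Tnni3, Actn2, Ryr2 and Tbx5 were 0.13, 0.104, 0.394, 0.32 and 0.0935 CPM. Those of Nkx2-5 and Gata4 were 1.52 and 9 CPM there, whereas Tnnt2 stood at 15.6 to 76.2 CPM by library. The summed level of 9 fibroblast markers was 10037 to 11990 CPM in the untransfected libraries and 1073 to 2515 CPM in the transfected ones. Most of that sum was Col3a1 (mean 9169 CPM in high glucose and 606 CPM in the mimic control). Not every marker was lower: Thy1 went from 0.802 CPM in high glucose to 1.0 CPM in the inhibitor control and 1.07 CPM in the mimic control. Postn went from 0.419 CPM to 1.85 CPM in the inhibitor control but to 0.33 CPM in the mimic control. Pdgfrb fell from 31.9 CPM to 27 CPM in the inhibitor control and 5.29 CPM in the mimic control. Mimic replicate 2 stood apart: its 12 macrophage markers, all detected, summed to 1320 CPM, against 30.8 to 69.6 CPM in each of the other 17 libraries. Mimic results for the 10 factors are therefore given with and without that library. In bulk RNA, fewer cells of a type and less RNA per cell cannot be told apart.

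All 10 genes were lower in both transfection controls than in untransfected high glucose cells, from 38.3-fold for Fos to 1.32-fold for Fosl1 in the mimic control. Relative to its own control the mimic went with levels 1.14-fold lower for Jun to 1.21-fold lower for Fosl1, and among the mimic libraries replicate 2 alone carried high Fos, Fosb, Egr1 and Egr2. The inhibitor changed none at the threshold. With all libraries in the fit, high glucose alone raised Fosl1 and Fosl2 slightly and lowered Jund and Ier2. Without mimic replicate 2, which is in neither group, 8 genes passed the threshold, with Fos, Junb and Egr2 also higher and Egr1 also lower. Log2 fold changes below come with a standard error (SE) and a Benjamini-Hochberg adjusted p from edgeR's quasi-likelihood test over all tested genes, and genes with an adjusted p below 0.05 are termed called. Levels are CPM scaled by the TMM method, as mean ± SD of 3 libraries, and levels of different genes are compared only as FPKM, which divides by transcript length.

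**Figure D1:**
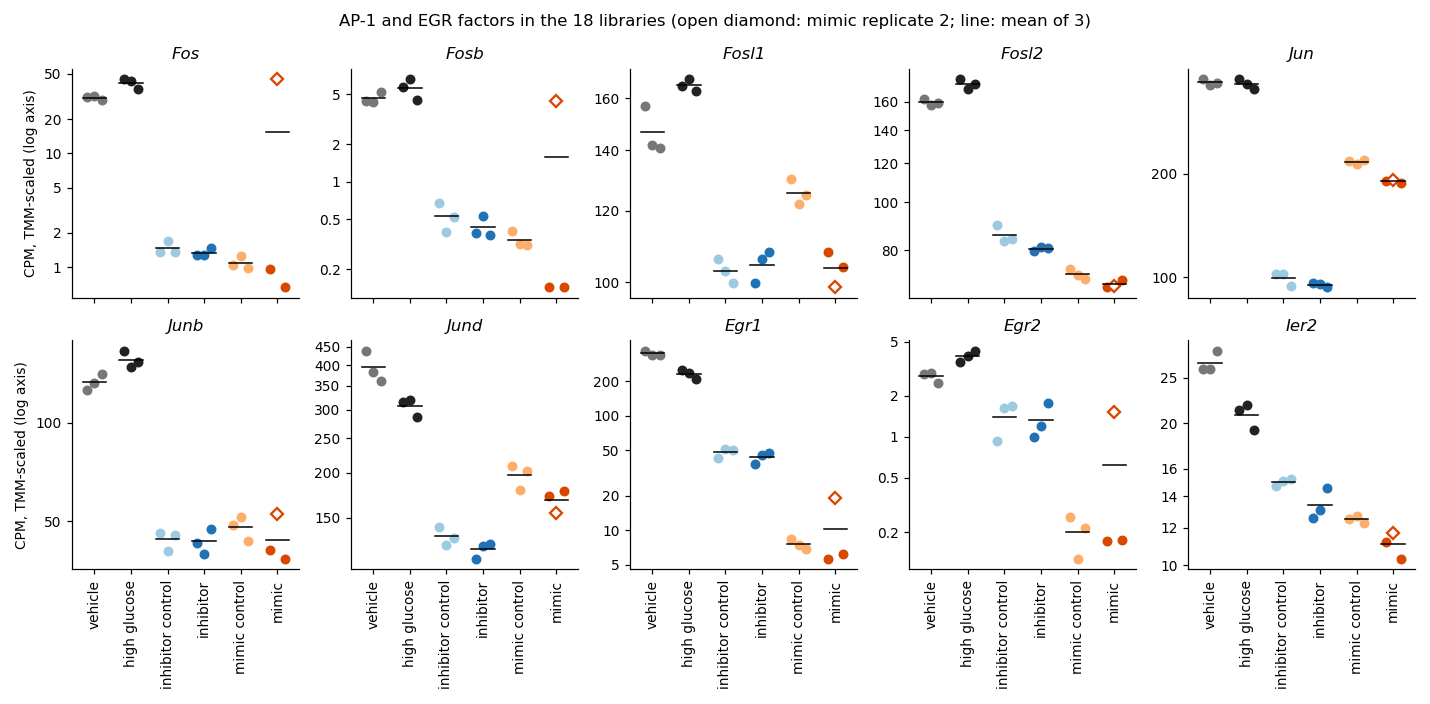
Level of each gene in each of the 18 libraries (CPM, log axis, a different range in each panel), by group, with the mean of 3 libraries as a line and mimic replicate 2 as an open diamond. Fos, Fosb, Egr1 and Egr2 lie well below the untransfected libraries in the transfected ones other than mimic replicate 2, which stands at 45.0 CPM for Fos and 4.46 CPM for Fosb.

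Fos (ENSMUSG00000021250.14, chr12:85520658-85524047, plus strand, in GRCm39) is the prototype immediate early gene. It stood at 31.1, 31.8 and 29.5 CPM in the vehicle libraries and at 44.9, 43.4 and 37.1 CPM in high glucose. In the inhibitor control it stood at 1.35, 1.68 and 1.36 CPM, in the inhibitor group at 1.27, 1.28 and 1.46 CPM, and in the mimic control at 1.04, 1.24 and 0.989 CPM. The 9 libraries of these groups thus lay far below all 6 untransfected libraries. Mimic replicates 1 and 3 stood at 0.969 and 0.665 CPM, from 34 and 23 reads, and mimic replicate 2 at 45.0 CPM, from 1544 reads, level with the highest high glucose library. Against high glucose, the log2 fold change of Fos was -5.26 ± 0.978 (adjusted p = 5.73e-05) in the mimic control and -4.83 ± 0.924 (adjusted p = 8.2e-05) in the inhibitor control. Without mimic replicate 2 these were -5.24 ± 0.11 and -4.83 ± 0.103: the values hardly moved, while the errors, which rest on 1 estimate of the spread shared by all groups, were smaller.

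Fosb (ENSMUSG00000003545.4, chr7:19036621-19043976, minus strand) encodes a close relative of Fos with a short form that lacks the activation domain, and the table does not separate the forms. It was the gene of lowest level per length in most groups. Its levels were 4.47, 4.37 and 5.27 CPM with vehicle and 5.7, 6.65 and 4.55 CPM in high glucose, where the ranges overlapped. The transfected libraries other than mimic replicate 2 held 0.143 to 0.675 CPM, from 5 to 24 reads each, all below the untransfected ones. Mimic replicate 2 held 4.46 CPM, from 153 reads, inside the vehicle range. Fosb was lower than in high glucose in the mimic control (-4.02 ± 0.763, adjusted p = 7.39e-05) and in the inhibitor control (-3.4 ± 0.71, adjusted p = 0.000207).

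Fosl1 (ENSMUSG00000024912.7, chr19:5497575-5505974, plus strand) encodes Fra-1 and held most of the Fos family's summed FPKM. It stood at 157, 142 and 141 CPM with vehicle, at 165, 168 and 163 CPM in high glucose, and at 130, 122 and 125 CPM in the mimic control. The mimic libraries held 108, 98.7 and 104 CPM, all below the mimic control, and here mimic replicate 2 was the lowest and not the highest. Inhibitor control and inhibitor overlapped, at 99.9 to 106 and 99.7 to 108 CPM. The effects of mimic and inhibitor on Fosl1 differed by -0.3 ± 0.07 (adjusted p = 0.00901). That made 1 of 10 genes called, where 13.2% of tested genes were.

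Fosl2 (ENSMUSG00000029135.11, chr5:32292707-32315186, plus strand) encodes Fra-2. The order of its levels was high glucose (174 ± 4.07 CPM), vehicle (160 ± 2.2), inhibitor control (85.9 ± 3.44), inhibitor (80.6 ± 0.923), mimic control (71.6 ± 1.56) and mimic (68.2 ± 1.14), and no 2 neighbours in this order overlapped. Mimic replicate 2, at 67.8 CPM, lay between the other mimic libraries at 67.3 and 69.5 CPM. Against high glucose Fosl2 changed by -1.28 ± 0.04 (adjusted p = 9.01e-17) in the mimic control and by -1.02 ± 0.0396 (adjusted p = 4.57e-15) in the inhibitor control.

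Jun (ENSMUSG00000052684.5, chr4:94937271-94940459, minus strand) encodes the AP-1 subunit that can pair with itself as well as with Fos proteins. Vehicle libraries held 377, 363 and 366 CPM and high glucose libraries 377, 364 and 353 CPM, so that these groups overlapped. In the mimic control it was at 218, 214 and 219 CPM and with the mimic at 191, 192 and 188 CPM, with no overlap. The inhibitor control held 102, 102 and 94.1 CPM and the inhibitor group 96.1, 95.4 and 93.5 CPM. Jun was thus 2.18-fold lower in the inhibitor control than in the mimic control (-1.12 ± 0.042, adjusted p = 1.02e-14), the widest gap between the controls in the lower direction among the 10 genes.

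Junb (ENSMUSG00000052837.8, chr8:85701113-85705359, minus strand), whose product is a weaker activator than Jun, stood at 133 ± 7.57 CPM with vehicle and 155 ± 9.32 CPM in high glucose. The 4 transfected groups had means between 43.4 and 47.9 CPM and overlapped with each other. Its log2 fold change against high glucose was -1.7 ± 0.0956 (adjusted p = 1.29e-12) in the mimic control and -1.82 ± 0.0959 (adjusted p = 5.89e-13) in the inhibitor control. Mimic replicate 2 was the highest transfected library, at 52.7 CPM, against 40.8 and 38.3 CPM in the other mimic libraries.

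Jund (ENSMUSG00000071076.9, chr8:71151599-71153265, plus strand), the least inducible Jun gene, had the highest level per length of the 10 in every group. It held 439, 383 and 362 CPM with vehicle and 315, 320 and 286 CPM in high glucose, with no overlap. The means then went down from the mimic control (197 ± 15.5) to the mimic (169 ± 11.9), the inhibitor control (133 ± 7.75) and the inhibitor (122 ± 6.75 CPM), and only the last pair overlapped. For Jund the change from high glucose was -0.64 ± 0.0754 (adjusted p = 1.49e-07) in the mimic control and -1.21 ± 0.0764 (adjusted p = 1.13e-11) in the inhibitor control.

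Egr1 (ENSMUSG00000038418.8, chr18:34992876-34998049, plus strand) encodes a zinc finger activator of growth factor and matrix genes. Vehicle libraries were at 370, 340 and 342 CPM and high glucose libraries at 252, 238 and 211 CPM. The inhibitor control was at 42.9, 51.1 and 50 CPM and the inhibitor group at 37.9, 45.3 and 47.6 CPM, and these groups overlapped. The mimic control was at 8.4, 7.5 and 6.8 CPM. Mimic replicates 1 and 3 were below all of these, at 5.61 and 6.16 CPM, and mimic replicate 2 was at 19.3 CPM, between the 2 controls. Egr1 was 30.8-fold lower in the mimic control than in high glucose (-4.95 ± 0.277, adjusted p = 1.21e-12) but 4.87-fold lower in the inhibitor control (-2.29 ± 0.23, adjusted p = 1.59e-08), and the controls differed by 2.66 ± 0.274 (adjusted p = 2.83e-08).

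Egr2 (ENSMUSG00000037868.16, chr10:67371305-67378018, plus strand), a relative of Egr1 best known from myelinating Schwann cells, was near the depth limit in part of the libraries. It stood at 2.92, 2.95 and 2.49 CPM with vehicle and at 3.55, 3.93 and 4.3 CPM in high glucose. The inhibitor control held 0.928, 1.63 and 1.68 CPM and the inhibitor group 0.992, 1.2 and 1.78 CPM. In the mimic control it was at 0.259, 0.127 and 0.216 CPM, from 9, 4 and 7 reads, and in mimic replicates 1 and 3 at 0.171 and 0.174 CPM, from 6 reads each. Mimic replicate 2, at 1.52 CPM from 52 reads, lay inside the range of the inhibitor control. As with Egr1, the fall against high glucose was deeper in the mimic control (-4.25 ± 0.551, adjusted p = 5.85e-07) than in the inhibitor control (-1.48 ± 0.421, adjusted p = 0.00338), and the controls themselves differed by 2.78 ± 0.589 (adjusted p = 0.000273).

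Ier2 (ENSMUSG00000053560.6, chr8:85387960-85389483, minus strand) encodes a small nuclear protein induced with Fos. Its means fell in the order vehicle (26.9 ± 1.42 CPM), high glucose (20.8 ± 1.34), inhibitor control (15 ± 0.266), inhibitor (13.4 ± 0.995), mimic control (12.5 ± 0.224) and mimic (11 ± 0.709), and only inhibitor and mimic control overlapped. Mimic replicate 2 held 11.7 CPM, beside 11.2 and 10.3 CPM in the other mimic libraries. Against high glucose Ier2 was at -0.74 ± 0.0672 (adjusted p = 3.22e-09) in the mimic control and at -0.47 ± 0.066 (adjusted p = 1.73e-06) in the inhibitor control.

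Transfection with either negative control, compared with untransfected cells in the same high glucose, thus went with lower transcripts of every one of these factors. In the mimic control all 10 were called lower, where 78.9% of tested genes were called, 39.9% lower and 39.0% higher. In the inhibitor control all 10 were again called lower, where 79.5% of tested genes were called, 39.3% lower and 40.1% higher. The median log2 fold change of the 10 genes was -1.49 in the mimic control and -1.65 in the inhibitor control, beside 0.01 and 0.04 over all tested genes. Both comparisons use the same high glucose libraries. Untransfected and transfected cells also differed in the fibroblast markers above, whose part in these results was not tested, and the reagent and any difference in handling cannot be told apart.

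**Figure D2:**
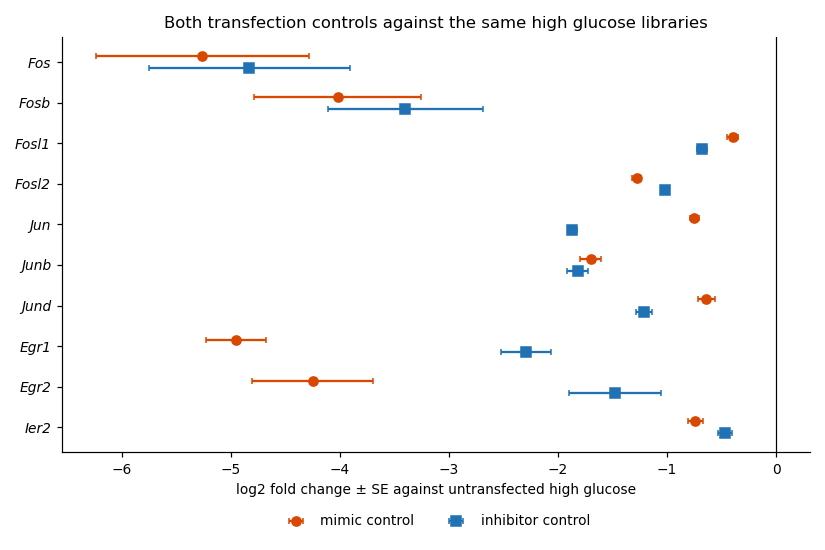
Log2 fold change ± SE of the 10 genes in the mimic control (orange circles) and inhibitor control (blue squares) against the same untransfected high glucose libraries. All 20 values lie left of 0, and the 2 controls lie furthest apart for Egr1 (-4.95 and -2.29) and Egr2 (-4.25 and -1.48).

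The 2 negative controls, neither of which carries a miR-200a-3p reagent, differed from each other in 7 of the 10 genes, where 74.2% of tested genes were called (38.5% higher and 35.7% lower in the inhibitor control). Egr2, Egr1, Fosl2 and Ier2 were higher in the inhibitor control, the last 2 by 0.26 on the log2 scale each. Jun, Jund (-0.57 ± 0.0761) and Fosl1 (-0.29 ± 0.0495) were lower there. Fos (0.43 ± 1.39), Fosb (0.61 ± 0.936) and Junb (-0.12 ± 0.0969) were not called, and without mimic replicate 2 Fos was called too (0.41 ± 0.181, adjusted p = 0.0428). The share of reads from the ribosomal RNA gene Rn18s was 0.0841 to 0.181% in the libraries of inhibitor and inhibitor control and 0.874 to 1.27% in the 12 others, and its part in this difference was not tested.

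Relative to its own control, the mimic went with lower Fosl1, Jun and Jund and, through 1 library, with higher Fos and Fosb. Of the 10 genes 5 were called, where 33.7% of tested genes were called, 15.8% higher and 18% lower. limma on log2(FPKM + 1) called 2830 genes higher and 1785 lower, so that 61.3% of its calls were higher against 46.7% here. Fosl1 changed by -0.28 ± 0.0495 (adjusted p = 0.000347), Jun by -0.19 ± 0.0412 (adjusted p = 0.00175) and Jund by -0.22 ± 0.0756 (adjusted p = 0.0281). Jund was not called without mimic control replicate 1 (adjusted p = 0.1139) or replicate 3 (0.08669), and Fosb lost its call when single libraries of most groups were left out. Fos was at 3.83 ± 1.02 (adjusted p = 0.00722) and Fosb at 2.18 ± 0.82 (adjusted p = 0.0464), although 2 of the 3 mimic libraries lay below all 3 control libraries in both genes. The median over the 10 genes was -0.1. The 2 genes with a seed match in the UTR, Jun and Egr2, had no common direction with all libraries (-0.19 and 1.59). Without mimic replicate 2 both were negative (-0.21 and -0.24), as all 10 genes were. Egr2 was called in neither fit.

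Without mimic replicate 2, all 10 genes had a negative log2 fold change under the mimic, with a median of -0.24 beside -0.01 over all tested genes. The call of Fos was lost and its direction turned (-0.41 ± 0.231, adjusted p = 0.199), and so with Fosb (-1.25 ± 0.488, adjusted p = 0.0597). Egr1 went from 0.45 ± 0.305 (adjusted p = 0.281) to -0.37 ± 0.135 (adjusted p = 0.0429). Fosl1 (-0.25 ± 0.0565, adjusted p = 0.00171) and Jun (-0.21 ± 0.052, adjusted p = 0.00487) were still called lower. Junb (-0.28 ± 0.0805, adjusted p = 0.0107) and Ier2 (-0.23 ± 0.0831, adjusted p = 0.043) were now called lower as well, and Jund (-0.18 ± 0.0766, adjusted p = 0.0919) no longer was. Fosl2 (-0.08 ± 0.052) and Egr2 (-0.24 ± 0.577) were not called. Thus 5 genes were called lower and 0 higher, where 26.2% of tested genes were called, 14.9% lower and 11.3% higher. DESeq2 was not run without this library.

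**Figure D3:**
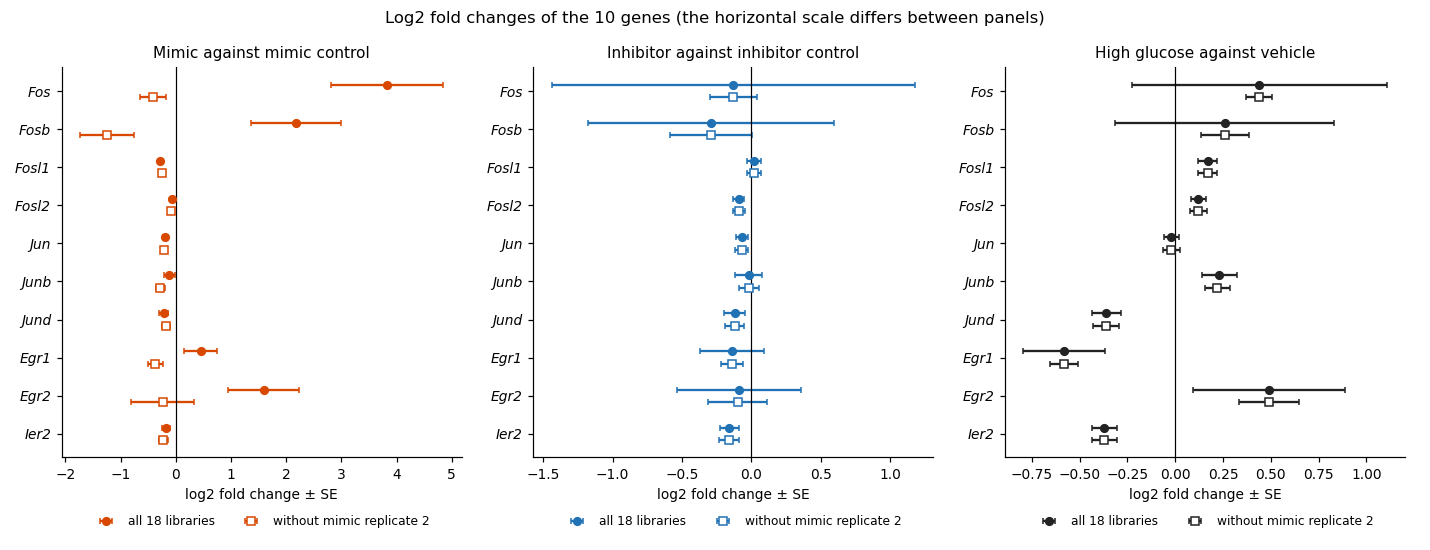
Log2 fold change ± SE of the 10 genes for the mimic, the inhibitor and high glucose, each against its control, from all 18 libraries (filled circles) and without mimic replicate 2 (open squares), on horizontal scales that differ between panels. Under the mimic Fos moves from 3.83 to -0.41 and Fosb from 2.18 to -1.25, while the 5 genes Fosl1, Fosl2, Jun, Jund and Ier2 keep values between -0.28 and -0.07.

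Mimic replicate 2 stood apart in some of these factors and in other genes. Relative to the mean of mimic replicates 1 and 3, Fos was 55.1 times as high, Fosb 31.1, Egr2 8.8, Egr1 3.28 and Junb 1.33 times, whereas the other 5 genes lay between 0.886 and 1.09 times. Over all tested genes the median ratio was 0.969, and 806 genes (5.35%) reached 2 or more, 230 of them (1.53%) 10 or more. Macrophage markers moved with Fos in that library: Lyz2 was 57.6 times as high, at 870 CPM, Csf1r 50.7 times, Adgre1 52.4 times and Tyrobp 77.9 times, while Cd68 was at 3.75 times. Fibroblast markers did not, at 1073 CPM in sum beside 1113 to 1148 CPM. Whether these transcripts have a part in the level of Fos was not tested.

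**Figure D4:**
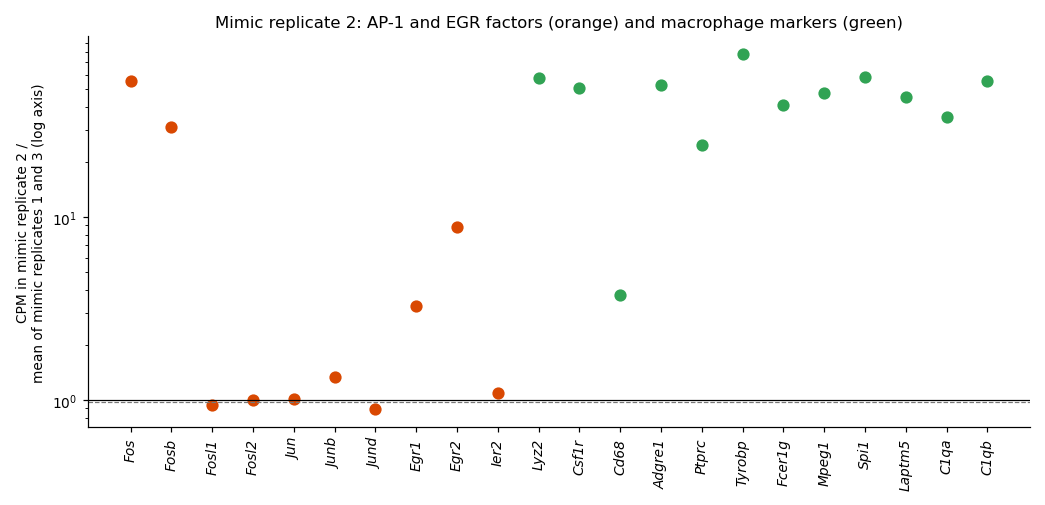
Ratio of the CPM in mimic replicate 2 to the mean of mimic replicates 1 and 3 (log axis) for the 10 factors (orange) and 12 macrophage markers (green), with 1 as a solid line and the median of all tested genes, 0.969, dashed. Fos, at 55.1, lies among the macrophage markers, which lie between 24.8 and 77.9 except Cd68 at 3.75, and 6 factors lie within 1.33 times of 1.

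The inhibitor, compared with its own control, went with no called change: 0 of the 10 genes were called, where 0% of the 15074 tested genes were (447 had an unadjusted p under 0.05 and so had 2 of the 10). DESeq2 and limma also called 0 genes, edgeR without the filter on low counts called 26, and edgeR on these 2 groups alone called 1. Fosl2 (-0.09 ± 0.0398) and Ier2 (-0.16 ± 0.0675) had the unadjusted p under 0.05, with an adjusted p of 1 for both. Their libraries did not overlap, but the share of all tested genes that separate in this way was not counted. The log2 fold changes of the other genes lay between -0.29 ± 0.885 for Fosb and 0.02 ± 0.0495 for Fosl1. The errors of Fos (-0.13 ± 1.31) and Fosb were wide, and without mimic replicate 2 they were 0.169 and 0.297, with the genes still not called. The difference between the effects of mimic and inhibitor was called for Fosl1, 1 of the 10 genes, a share below the 13.2% of all tested genes, and held without mimic replicate 2 (-0.28 ± 0.0756, adjusted p = 0.0205).

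High glucose without transfection went with small changes in both directions. Of the 10 genes 4 were called, where 24.2% of tested genes were called, 12% higher and 12.2% lower. Fosl1 was 1.13-fold higher (0.17 ± 0.0488, adjusted p = 0.0134) and Fosl2 1.09-fold higher (0.12 ± 0.0388, adjusted p = 0.0253). Jund was 1.29-fold lower (-0.36 ± 0.0747, adjusted p = 0.00124) and Ier2 likewise (-0.37 ± 0.064, adjusted p = 0.000273). Fos (0.44 ± 0.667), Junb (0.23 ± 0.091), Egr1 (-0.58 ± 0.214, adjusted p = 0.0532) and Egr2 (0.49 ± 0.398) were not called. No libraries overlapped between the groups for any of them, but the share of all tested genes that separate in this way was not counted. Jun (-0.02 ± 0.0407) and Fosb (0.26 ± 0.573) overlapped.

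The count for high glucose depended on mimic replicate 2, which is in neither group but enters the shared spread. Without it 8 genes were called, where 26.6% of tested genes were called, 12.9% higher and 13.7% lower. Fos (0.44 ± 0.0688, adjusted p = 2.07e-05), Egr2 (0.49 ± 0.157, adjusted p = 0.0202) and Junb (0.22 ± 0.0657, adjusted p = 0.0117) joined the higher genes, and Egr1 (-0.58 ± 0.0733, adjusted p = 7.99e-07) the lower ones. With only the 2 groups compared in the fit, 7 were called. Fosl2 was lost there (adjusted p = 0.126), as it was without vehicle replicate 2 (0.0546), vehicle replicate 3 (0.0572) or high glucose replicate 1 (0.0662), and Fosl1 was lost without vehicle replicate 3 (adjusted p = 0.0651).

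Per length, the Fos family was mostly Fosl1 and the Jun family mostly Jund. The summed FPKM of the 4 Fos genes was 104 ± 3.72 with vehicle and 118 ± 1.64 in high glucose. In the transfected groups it was 59.1 to 62.3 on average. The mimic group, at 61.1 ± 9.91, ran from 54.3 to 72.5, with Fos at 18.39 FPKM in replicate 2 and 0.39 and 0.26 FPKM in replicates 1 and 3. Fosl1 held 70.4 ± 1.0% of the sum with vehicle and 69.0 ± 1.01% in high glucose. Its share was 84.1 ± 0.215% in the inhibitor control, 85.1 ± 0.367% with the inhibitor and 88.6 ± 0.308% in the mimic control. Fos itself held 12.8 ± 0.593% and 15 ± 1.15% in the untransfected groups and 0.67 to 1.04% on average in the inhibitor, inhibitor control and mimic control groups. With the mimic it held 0.691 and 0.479% in replicates 1 and 3 and 25.4% in replicate 2, where Fosl1 fell to 64.4%. The Fosl2 share ran from 10.6% in the mimic control to 16.1% with vehicle. Shares sum to 100% within a library, so a lower share of Fos raises the others.

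In the Jun family the sum was 414 ± 19.3 FPKM with vehicle, 368 ± 13.3 in high glucose, 185 ± 9.21 in the mimic control, 169 in the mimic group, 128 ± 6.03 in the inhibitor control and 120 ± 4.12 with the inhibitor. Jund held between 50.3 ± 1.39% (high glucose) and 61.3 ± 0.839% (inhibitor control). Jun held 32.9 ± 1.08% in the mimic control and 24.0 ± 1.4% in the inhibitor control, with 28.2 ± 1.07% with vehicle between them. Junb held 18.5 ± 0.961% in high glucose, above all other groups, and 10.1 ± 1.17% in the mimic control. Among all 10 genes in the mimic control, mean FPKM ran from 106 for Jund, 60.9 for Jun and 55.2 for Fosl1 to 0.417 for Fos, 0.0533 for Egr2 and 0.05 for Fosb.

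**Figure D5:**
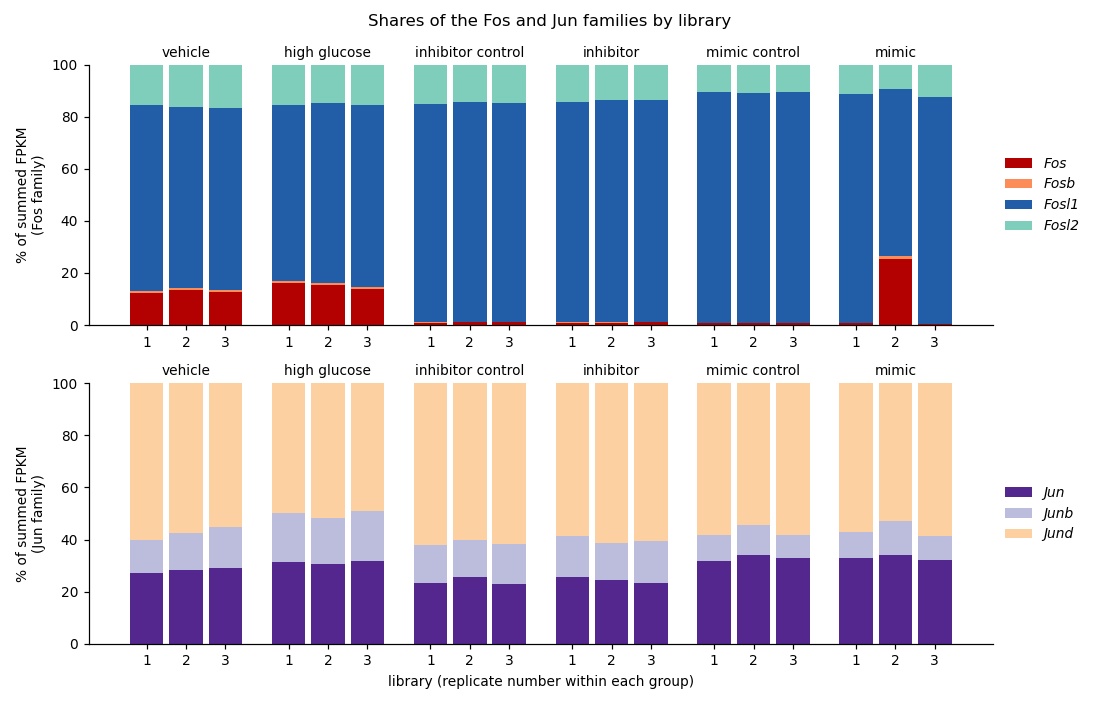
Share (%) of the summed FPKM of the Fos family (top) and the Jun family (bottom) that each gene holds, 1 bar per library, grouped by condition. Fos fills 12.3 to 16% of the bars of untransfected libraries and 25.4% of that of mimic replicate 2, and is thin in the other transfected libraries, while the Jun family keeps Jund as its largest part in all of them.

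Among the basic leucine zipper partners of these proteins, some rose in the transfection controls. Counts of list members here and below are read against the shares of all tested genes: 39.0% higher and 39.9% lower in the mimic control and 40.1% higher and 39.3% lower in the inhibitor control, each against high glucose. For the mimic the shares were 15.8% higher and 18% lower (11.3% and 14.9% without mimic replicate 2), and for high glucose 12% and 12.2%. Of 13 listed partners, 12 were tested. In the mimic control 5 were higher and 1 lower than in high glucose, with a median log2 fold change of 0.22, and in the inhibitor control 6 were higher and 3 lower. The 6 of 12 called in the mimic control are a smaller share than the 78.9% of all genes. Atf3, a stress-induced factor that pairs with Jun, rose from 33.8 CPM in high glucose to 512 CPM in the mimic control (3.92 ± 0.0586, adjusted p = 3.37e-21) and 201 CPM in the inhibitor control (2.57 ± 0.0562, adjusted p = 8.25e-19). Atf4, the main effector of the integrated stress response, rose by 2.74 ± 0.0457 and 2.47 ± 0.0452, and Mafk by 2.38 ± 0.0466 and 1.48 ± 0.0458. Batf, of low level throughout, fell from 0.533 CPM to 0.0944 CPM in the inhibitor control (-2.45 ± 0.527), the latter near the depth limit. Under the mimic 3 partners were higher, among them Crem (0.42 ± 0.13) and Creb1 (0.34 ± 0.0675), and 3 lower, among them Atf3 (-0.25 ± 0.0507) and Mafk (-0.27 ± 0.0435). Without mimic replicate 2, 3 were higher and 2 lower. High glucose lowered 3, led by Atf3 (-0.7 ± 0.0557) and Atf4 (-0.42 ± 0.0434).

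Relatives and corepressors of EGR proteins were lower in the controls as well. Of 5 listed, 3 were tested, and all 3 fell in both controls against high glucose. Egr3 fell by 3.41 on the log2 scale in the mimic control (SE 0.262) and by 1.6 in the inhibitor control (SE 0.219). Nab2, a corepressor that EGR1 itself induces, was at -2.13 ± 0.0584 and -1.41 ± 0.0566, and Nab1 at -1.55 ± 0.0699 and -0.38 ± 0.0675. Egr3 (1.81 ± 0.283), Nab1 (1.16 ± 0.0696) and Nab2 (0.73 ± 0.0574) were higher in the inhibitor control than in the mimic control, as Egr1 and Egr2 were. The mimic raised Nab1 (0.41 ± 0.0697, adjusted p = 0.000253), also without mimic replicate 2 (0.36, adjusted p = 0.000704), when 2 of the 3 were higher, and high glucose lowered Egr3 (-0.58 ± 0.198, adjusted p = 0.0377).

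Among 28 other immediate early genes, all tested, 16 were lower and 9 higher in the mimic control than in high glucose (median -0.68), and 21 were lower and 6 higher in the inhibitor control (median -0.74), beside 39.9% and 39.3% of all tested genes lower. The orphan nuclear receptors Nr4a1, Nr4a2 and Nr4a3 fell most in the mimic control, Nr4a1 from 57.8 to 1.04 CPM (-5.8 ± 0.193, adjusted p = 2.42e-16) and Nr4a2 from 93 to 6.14 CPM (-3.92 ± 0.0606). Myc, by contrast, rose from 24.7 CPM to 139 CPM in the mimic control (2.49 ± 0.0701) and 88.4 CPM in the inhibitor control (1.84 ± 0.0696), and the kinase gene Pim1 rose with it (2.24 ± 0.068 and 1.24 ± 0.0694). Under the mimic 9 were lower and 0 higher, with Csrnp1 (-0.58 ± 0.0832), Gadd45b (-0.57 ± 0.209) and the matrix gene Ccn1 (-0.5 ± 0.0648) leading, and without mimic replicate 2 13 were lower and 0 higher. High glucose raised 5, led by Nr4a3 (1.07 ± 0.173), Nr4a2 (0.8 ± 0.0498) and Nr4a1 (0.7 ± 0.13), and lowered 5, led by Klf10 (-0.75 ± 0.0942) and Klf2 (-0.7 ± 0.0768), where 24.2% of all tested genes were called.

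Genes that control immediate early promoters are read against the 78.9% of all tested genes called in the mimic control and the 79.5% in the inhibitor control. Of 7 genes for serum response factor and its partners, 2 rose and 4 fell in the mimic control, and 3 rose and 4 fell in the inhibitor control. Srf rose in both (1.09 ± 0.0712 and 0.32 ± 0.0721), whereas the ternary complex factor Elk3 (-2.27 ± 0.0507 and -1.3 ± 0.0479) and the coactivator Mrtfb (-1.49 ± 0.0676 and -1.31 ± 0.0668) fell. The mimic lowered 3, among them Mrtfa (-0.45 ± 0.0647) and Srf (-0.29 ± 0.0691), and raised Elk4 (0.44 ± 0.0648) and Elk3 (0.22 ± 0.0522), the last not without mimic replicate 2 (0.16, adjusted p = 0.0509), when 1 was higher and 4 lower. High glucose raised 1, Elk4 (0.28 ± 0.0606), and lowered 0. Of 18 MAP kinase pathway genes, 4 rose and 8 fell in the mimic control, and 5 rose and 10 fell in the inhibitor control. Mapk3, which encodes ERK1, fell in both (-1.41 ± 0.0527 and -1.56 ± 0.0529), and Map2k6, which activates p38, fell too (-2.84 ± 0.173 and -2.02 ± 0.159). The mimic raised 4 and lowered 3 of them (3 and 3 without mimic replicate 2), and Rps6ka1 (2.58 ± 0.884) rested on mimic replicate 2 (-0.4, adjusted p = 0.711 without it). High glucose raised 2, with Mapk14, the gene of p38 alpha, at 0.88 ± 0.0474, and lowered 1.

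Feedback inhibitors that ERK signalling induces were mostly lower after transfection. All 10 were tested. In the mimic control 8 fell and 2 rose (median -1.03), and in the inhibitor control 6 fell and 3 rose (median -0.66), beside 39.9% and 39.3% of all tested genes lower. Dusp6, a phosphatase specific for ERK, went from 53.8 CPM in high glucose to 9.4 CPM in the mimic control (-2.51 ± 0.0697) and 10.9 CPM in the inhibitor control (-2.31 ± 0.0683). Spry1 rose in the inhibitor control (2.34 ± 0.209). The mimic raised 3, led by Spry4 (0.46 ± 0.144), and lowered Dusp5 (-0.29 ± 0.0822), and without mimic replicate 2 it raised 1, Spred1 (0.3, adjusted p = 0.00512), and lowered 0. High glucose raised 1 and lowered 1, a share near the 24.2% of all tested genes. Of 6 genes that set the stability of Jun protein, 4 rose and 1 fell in the mimic control and 3 rose and 1 fell in the inhibitor control, with Det1, part of a Jun ubiquitin ligase, at 1.24 ± 0.138 and 0.93 ± 0.138. The mimic raised 2 of them, Itch and Fbxw7, neither by more than 0.18 on the log2 scale, and without mimic replicate 2 it raised 0. High glucose lowered 1, Fbxw7 (-0.21 ± 0.0465).

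Genes described as AP-1 targets split. Of 20 listed, 19 were tested: 12 fell and 6 rose in the mimic control (median -0.54), and 15 fell and 4 rose in the inhibitor control (median -1.25), beside 39.9% and 39.3% of all tested genes lower. Lif fell in both, from 31.3 CPM in high glucose to 2.51 CPM (-3.64 ± 0.0956) and 1.84 CPM (-4.08 ± 0.0988), and Sphk1 fell too (-2.34 ± 0.0958 and -2.86 ± 0.0994). Hmox1, the stress-induced haem oxygenase, rose in both (1.88 ± 0.0667 and 2.3 ± 0.0668). The matrix protease genes differed between the controls: Mmp3 was 4.31 ± 0.194 and Mmp10 3.74 ± 0.121 higher in the inhibitor control than in the mimic control. The mimic lowered 9 and raised Mmp3 (1.46 ± 0.254), with the same counts without mimic replicate 2, where 33.7% of all tested genes were called with all libraries and 26.2% without that one. High glucose raised 4, led by Lif (1.01 ± 0.079), and lowered 7, led by Mmp10 (-1.45 ± 0.12), beside 24.2% of all genes called.

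All 11 tested genes of 12 described as EGR1 targets fell in the mimic control (median -2.6), and 7 fell and 1 rose in the inhibitor control (median -1.41), beside 39.9% and 39.3% of all tested genes lower. Tgfb1 fell to 19.5 CPM in the inhibitor control (-2.42 ± 0.0788), whereas F3, the gene of tissue factor, rose there (0.63 ± 0.101). The inhibitor control was higher than the mimic control in 7, led by Thbs1 (3.66 ± 0.67) and Fgf2 (2.63 ± 0.32), and lower in 2. In that comparison 74.2% of all tested genes were called, 38.5% higher and 35.7% lower. Under the mimic 3 were higher, and the values of Ptges (2.97 ± 0.833) and Thbs1 (2.11 ± 0.667) rested on mimic replicate 2, at 23.2 and 16.3 times the mean of the other mimic libraries. Without it Ptges was at -0.09 (adjusted p = 0.899) and Thbs1 at -0.51 (adjusted p = 0.000151), and 2 of the list were higher and 1 lower. High glucose raised 1, Vegfa (0.19 ± 0.0477), where 24.2% of all tested genes were called, and without mimic replicate 2 it raised 3 and lowered 1. The inhibitor called 0 members of any of the 9 lists. Nab2 and Srf are each in 2 of the lists, and the lists share the libraries of the 10 factors, so they add no independent samples.

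Other genes with the most similar pattern were ranked among 9428 tested genes of at least 5 CPM. The measure was the root mean square difference (RMS) of the 6 group means of log2 CPM, each gene centred on its own mean. An offset of 0.5 CPM was added before the log, which shrinks changes of genes near or below that level. In the mimic control Egr2 (0.201 CPM) and Fosb (0.343 CPM) lay below it, so their neighbours here may differ more from them in fold change than the RMS shows. Jun was closest to Ier3, another immediate early gene, with an RMS of 0.0381 log2 units, and to Per2, a clock gene (0.0686), and both ranks held without mimic replicate 2 (0.0294 and 0.0678). Fosl2 was closest to Stat5a (0.0322; without mimic replicate 2 to Dap, 0.0498), Jund to Cfap410 (0.0534), Junb to Brsk1 (0.0456), Fosl1 to Otud5 (0.0557), Egr2 to Abcd4 (0.0889), Fosb to Pfn2 (0.103) and Ier2 to Arrdc1 (0.0632). Without mimic replicate 2 the first place passed to Fam110a for Junb, Usp19 for Fosl1, Tppp3 for Egr2 and Lama4 for Fosb, and stayed for Jund and Ier2. Egr1 had only distant neighbours, Mrgprf (0.201) and C1qtnf1 (0.219), in the other order without mimic replicate 2 (0.261 and 0.26). With all libraries Fos was furthest from any other gene, with Nfkbia at 0.457, and without mimic replicate 2 its nearest gene was Ccl2 at 0.146. Among the 10 factors themselves, Fosl2 and Ier2 (0.194) and Jun and Jund (0.261) were nearest pairs. Egr1 was 1.2 from its nearest, Egr2, and without mimic replicate 2 its nearest was Fos at 1.01. The offset enters these distances of Egr1, since it shrinks the changes of Egr2 more. In the fit, Egr1 and Egr2 were at -4.95 and -4.25 in the mimic control and -2.29 and -1.48 in the inhibitor control, each against high glucose. For high glucose against vehicle they were at -0.58 and 0.49. The rank is a description over 6 group means and carries no test.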

How the data were processed

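Total RNA of 18 HL-1 libraries was sequenced as stranded, paired-end mRNA libraries. The authors trimmed reads (FASTX-Toolkit 0.0.13), aligned them with HISAT2 to GRCm39 and deposited read counts per gene from uniquely mapped reads, per the labels' protocols. They also deposited FPKM values from those counts, per the labels' protocols. The counting program, its strand setting and the annotation release are not given in the sources used here, so reads of overlapping or antisense genes may not be separated. The submitters' processing notes also name DESeq2, with no role.

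From the counts, genes were kept by edgeR's filter by group (minimum count 10, minimum total 15), which does not ask for 10 reads in every library. They were scaled by TMM and tested with edgeR 4.0.16 (R 4.3.3) by quasi-likelihood F tests. The fit had 1 term per group and 12 residual degrees of freedom, with Benjamini-Hochberg adjustment over 15074 genes at 0.05. The 7 comparisons share control libraries. Alternatives were DESeq2 1.42.0, other scalings, no filter, the compared groups alone, the replicate number as a term, limma 3.58.1 on log2 FPKM as deposited plus 1 or 0.1, and leaving out each library. The code was tested on simulated data. Shares within families use FPKM, which lists 28907 of the 29112 genes. Coordinates come from GENCODE vM39 on GRCm39.

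The members and gene lists were chosen with earlier results of these data known. From each list up to 3 called genes with the largest change in each direction were named, and for likeness the 3 nearest genes were candidates. The likeness and list values without mimic replicate 2 were added after seeing the data. Promoter and microRNA sequences not in the tables used are not shown.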

Additional observations from a re-analysis of the deposited data

Results flagged for a closer look

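For Fosl1, 1 of the 10 genes, the response to the mimic differed from that to the inhibitor by a test of the difference itself, which called 13.2% of all tested genes. Subtracting the inhibitor's effect from the mimic's gave -0.3 ± 0.07 on the log2 scale (edgeR's quasi-likelihood test, adjusted p = 0.00901). The 3 mimic libraries stood at 98.7 to 108 CPM, below the 122 to 130 CPM of the mimic control, while the inhibitor libraries (99.7 to 108 CPM) overlapped their control (99.9 to 106 CPM). The 2 controls themselves differed for Fosl1 by -0.29 ± 0.0495.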

How the results depend on the processing

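Over the alternatives, 1718 of 1811 log2 fold changes of single members kept direction and side of the threshold, and 171 of 182 counts of called members stayed within 1.5 times. For high glucose against vehicle the count was 7 with the compared groups alone, and 2 (without vehicle replicate 3) to 8 (without mimic replicate 2) when 1 library was left out. For the mimic it was 3 with the compared groups alone, 2 by limma with either pseudocount, and 3 (without mimic control replicate 1 or 3) to 7 (without mimic replicate 1) on leaving out 1 library. For the difference of the mimic and inhibitor effects it was 5 without the filter and 1 to 2 on leaving out 1 library. The cause of these changes was not tested. The sign changed in 28 of the 1811. Under the mimic, leave-one-out values ran from -0.41 to 4.38 for Fos, -1.25 to 2.71 for Fosb, -0.37 to 0.73 for Egr1 and -0.24 to 2.03 for Egr2, each negative without mimic replicate 2. Of these Fos and Fosb were called with all libraries and Egr1 without that one. The other sign changes were of values not called in either fit. Leave-one-out values of the mimic minus the inhibitor effect, negative for the first 4 genes without mimic replicate 2, ran from -0.28 to 4.52 for Fos, -0.963 to 3.0 for Fosb, -0.23 to 0.87 for Egr1, -0.14 to 2.12 for Egr2, -0.0145 to 0.04 for Fosl2 and -0.0678 to 0.0384 for Ier2. They ran from -0.0373 to 0.0097 for Jun in high glucose, and under the inhibitor from -0.0025 to 0.0557 for Fosl1, -0.088 to 0.0384 for Junb and -0.36 to 0.0772 for Egr2. With limma at pseudocounts of 1 and 0.1, Fosl2 under the mimic was at 0.002 and 0.0023, Junb between the controls at 0.0113 and 0.0119, and Ier2 in the mimic minus inhibitor effect at 0.0477 and 0.0495, the last at 0.0085 with upper quartile scaling. DESeq2 gave no adjusted p for Fos. With CPM not divided by length, long transcripts weigh more. The Fosl1 share was then 42.9% (vehicle), 42.8% (high glucose), 53.9% (inhibitor control), 55.9% (inhibitor), 63.2% (mimic control) and 55.5% (mimic). The Jund share was 44%, 37.1%, 48%, 46.9%, 42.6% and 41.9% in the same order. Without mimic replicate 2 the shares in the mimic group were 60.4% for Fosl1 and 43.4% for Jund. By this measure Fosl2 exceeded Fosl1 with vehicle (46.7%) and in high glucose (45%). Jun exceeded Jund in high glucose (44.1%), the mimic control (47%) and the mimic group (47.2%). Upper quartile scaling moved the median of all genes by 0.1053 between the 2 controls. Replicate numbers did not pair the libraries: correlations of same-numbered deviations ran from -0.368 to 0.187, and 5 of 18 libraries correlated best with their own number. With the replicate block the count for the mimic was 4, for high glucose 4, and the other counts were the same. Fosb and Egr2 rested on 4 to 24 reads in many transfected libraries, where small differences were not detectable.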
